A study of Homo sapiens with 7 samples.

Results

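DNA methylation was compared between TET triple knockout and wild-type HUES8 cells at the stem cell stage, before any cardiac differentiation. HUES8 is an established human embryonic stem cell line. The comparison takes 2 of the 7 libraries of the series: wild-type stem cells (WT SC, day 0) and stem cells in which TET1, TET2 and TET3 were all knocked out (TKO SC, day 0), which per the labels had no treatment. The other 5 libraries are WT cells as cardiac mesoderm (WT CME, day 3), cardiac progenitors (WT CP, day 8) and beating cardiomyocytes (WT CM, day 14 by the series text; its description says day 15 and its source label names CME, so its stage rests on its title and stage label), and TKO cells as cardiac mesoderm (TKO CME, day 3) and cardiac progenitors (TKO CP, day 8), all from the same line. They serve below only to follow the sites found in stem cells. Each genotype and stage has 1 library, so no difference can be set against replicate spread, and the labels do not say whether the TKO cells are 1 clone. The files hold neither expression nor sequence, so neither the knockout nor the stem cell state was checked against its genes.

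The reads came from enhanced reduced representation bisulfite sequencing (ERRBS), which samples CpG-rich DNA and reads unmethylated cytosine as T. The reads of a CpG were added over its strands, and the methylation level is the share of C among C and T reads. Of 2586954 nuclear CpGs listed anywhere in the series, 2008109 (77.6%) were covered by at least 10 reads in both stem cell libraries, and their median coverage was 40 for WT SC and 77 for TKO SC. They filled 100187 bins of 1 kb that held 5 or more such CpGs, with a median of 9 CpGs. The members of the comparison are these CpGs and bins.

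As background, TET enzymes oxidise 5-methylcytosine, which lets the mark be diluted or excised. DNMT3A and DNMT3B place new methyl groups and are highly active in pluripotent cells. CpG islands at gene starts, by contrast, are usually kept free of methylation. Bisulfite reads 5-methylcytosine and 5-hydroxymethylcytosine alike as C, so a level here is the sum of both marks.

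A few promoters show the kinds of change that the comparison turned on, beside an unchanged example. No gene annotation of the files' build, hg19, was used. Promoter sequences of 300 bases (250 before the start to 50 after it) were taken from RefSeq (GRCh38.p14) and placed on the hg19 CpG positions of the files by the spacing of their CGs. Below are the 250 bases before each start, 5′ to 3′ in the direction of the gene, with its hg19 position and strand. Capitals mark the CGs that had 10 or more reads in both libraries. The first 3 went from unmethylated in WT SC to nearly full methylation in TKO SC, the next 2 fell, and SDHA, a subunit of the mitochondrial succinate dehydrogenase, is shown as the housekeeping promoter with the most measured CpGs. These examples were chosen after their values were seen.
ZNF354C, chr5:178487124-178487373, plus strand: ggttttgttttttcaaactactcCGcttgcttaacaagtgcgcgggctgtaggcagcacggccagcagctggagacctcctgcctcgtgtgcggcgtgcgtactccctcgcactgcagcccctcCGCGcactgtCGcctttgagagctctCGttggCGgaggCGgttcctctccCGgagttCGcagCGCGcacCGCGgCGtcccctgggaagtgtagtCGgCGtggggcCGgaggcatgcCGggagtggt
POU3F4, chrX:82763048-82763297, plus strand: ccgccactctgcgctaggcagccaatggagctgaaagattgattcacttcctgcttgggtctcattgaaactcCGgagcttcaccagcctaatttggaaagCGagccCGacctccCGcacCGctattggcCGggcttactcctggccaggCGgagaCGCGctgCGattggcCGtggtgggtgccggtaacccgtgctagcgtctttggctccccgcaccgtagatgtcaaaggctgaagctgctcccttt
HOXD10, chr2:176981256-176981505, plus strand: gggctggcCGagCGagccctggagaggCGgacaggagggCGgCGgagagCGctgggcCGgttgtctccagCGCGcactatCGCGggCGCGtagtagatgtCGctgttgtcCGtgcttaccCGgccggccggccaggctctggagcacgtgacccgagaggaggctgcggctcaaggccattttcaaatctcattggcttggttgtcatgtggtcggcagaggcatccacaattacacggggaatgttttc
ZNF630, chrX:47931008-47931257, minus strand: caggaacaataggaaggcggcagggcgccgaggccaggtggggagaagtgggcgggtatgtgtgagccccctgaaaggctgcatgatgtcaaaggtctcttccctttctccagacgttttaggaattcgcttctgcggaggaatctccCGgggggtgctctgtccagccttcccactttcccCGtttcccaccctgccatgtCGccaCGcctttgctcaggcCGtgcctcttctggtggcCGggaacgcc
ZNF583, chr19:56915451-56915700, plus strand: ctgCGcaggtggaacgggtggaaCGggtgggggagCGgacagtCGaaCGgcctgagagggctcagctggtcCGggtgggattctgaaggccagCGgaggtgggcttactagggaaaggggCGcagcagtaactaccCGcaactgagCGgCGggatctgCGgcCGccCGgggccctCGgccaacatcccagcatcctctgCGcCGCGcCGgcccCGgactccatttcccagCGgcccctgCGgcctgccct
SDHA, chr5:218185-218434, plus strand: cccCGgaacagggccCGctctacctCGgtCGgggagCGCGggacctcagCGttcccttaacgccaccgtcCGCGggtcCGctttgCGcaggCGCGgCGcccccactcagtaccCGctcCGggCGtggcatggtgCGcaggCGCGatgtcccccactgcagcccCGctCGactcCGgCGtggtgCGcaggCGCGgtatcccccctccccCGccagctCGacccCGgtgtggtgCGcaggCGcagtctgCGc

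The levels of single CpGs in these windows follow. Where the level of a window is near 0% or 100%, most of its CpGs must be too. The ranges are thus no separate evidence of a joint change. In ZNF354C the 25 measured CpGs of the window ran from 0% to 10% in WT SC and from 87.3% to 100% in TKO SC, so the ranges of the libraries lay far apart. In POU3F4 the 11 CpGs reached at most 10.3% in WT SC and were at 83.3% or more in TKO SC. HOXD10 was less even, with 16 CpGs between 0% and 9.57% in WT SC and between 25% and 100%, median 92.4%, in TKO SC. ZNF630 ran the other way, from a median of 93.9% over 10 CpGs in WT SC to a median of 0% in TKO SC, where the highest CpG stood at 12.5%. ZNF583 had all of its 28 CpGs between 16.3% and 57.9% in WT SC and at 2.54% or less in TKO SC. In SDHA none of the 39 CpGs passed 7.5% in WT SC or 2.46% in TKO SC.

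Taken over all CpGs, the libraries differed little in their mean and much in a small set of sites. The mean rose from 45.3% in WT SC to 47.7% in TKO SC, by 2.33 points, while the median difference was 0. Weighted by reads, the levels were 35.5% (95% Wilson interval 35.53 to 35.55) and 38.1% (38.05 to 38.06). These intervals cover counting error only and can be too narrow, since reads that span several CpGs are counted at each, and PCR copies are not independent molecules. TKO SC held fewer CpGs under 20% and over 95%. CpGs under 20% made up 48.4% in WT SC but 43.6% in TKO SC, while those under 5% were nearly as many (39.9% and 39.5%). CpGs over 95% made up 13.2% and 8.46%, although the share over 80% was slightly larger in TKO SC (41.7% and 42.5%). CpGs between 20% and 80% rose from 9.93% to 13.8% of the total. The part of coverage (median 40 for WT SC and 77 for TKO SC) in these shares was not tested, nor was that of unconverted cytosine.

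A CpG, bin or promoter was called higher or lower in TKO SC when its level differed by 25 points or more and Fisher's exact test on its C and T reads gave a Benjamini-Hochberg adjusted p under 0.01. With 1 library on each side this test compares the libraries, not the genotypes. By this rule 105931 CpGs (5.28%) were called higher in TKO SC and 4755 (0.237%) lower, while 77.0% of all CpGs stayed within 10 points. The higher CpGs went from a median of 10.7% to one of 81.4%, and the lower CpGs from 90% to 40%. Differences of 80 points or more, whatever their test, were seen as rises in 17838 CpGs and as falls in 168.

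Higher CpGs lay in runs more often than lower CpGs, but they were also more common (5.28% of all CpGs, against 0.237%). The part of their number and spacing in the runs was not tested. Joining called CpGs of the same direction with no more than 200 bp between neighbours, 67.0% of the higher CpGs and 10.4% of the lower CpGs lay in runs of 5 or more. Of the 27622 runs of higher CpGs 52.2% were single CpGs and 953 held 20 or more. The longest had 150 CpGs over 1852 bp on chromosome 10, from 134599989 to 134601840. Of the 3945 runs of lower CpGs 91.9% were single CpGs, and 7 held 20 or more. The longest lower run had 30 CpGs over 240 bp on chromosome 7, from 4681296 to 4681535.

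CpGs that were methylated to 95% or more in WT SC usually stayed methylated but at a lower level. Of 274775 such CpGs, 66.7% stood at 80 to 95% in TKO SC, 25.2% at 95% or more and 7.89% at 50 to 80%. At the other end, 88.7% of the 800725 CpGs under 5% in WT SC were also under 5% in TKO SC. CpGs at 5 to 20% in WT SC divided further: 46.8% of 171012 were under 5% in TKO SC and 10.9% were at 80% or more. These classes use the WT SC level itself, and the part of its counting error in such shares was not separated out.

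In 1 kb bins the same split appeared with more reads behind each value. In all, 5830 bins (5.82%) were higher in TKO SC and 133 (0.133%) lower, with a median of 401 reads per bin for WT SC and 759 for TKO SC. Higher bins rose from a median of 17.3% to 78.8%, and lower bins fell from 71.5% to 35.4%. Most of the higher bins ended at high methylation: 3199 stood at 70 to 90% in TKO SC and 563 at 90% or more, against 408 under 40%. Within the higher bins 80.8% of CpGs rose by 25 points or more, and in 1998 bins every measured CpG did. Without the 25-point minimum the balance turned: 15891 bins were higher and 21498 lower by adjusted p alone, and the median difference over all bins was -0.983 points. Small falls, with no correction for unconverted cytosine, were thus more common than small rises, and large rises more common than large falls. Just below the minimum number of CpGs, 2.52% of 4-CpG bins were up and 0.256% down by 25 points or more, whatever the test, and just above it 3.19% and 0.196% of 5-CpG bins were.

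**Figure D1:**
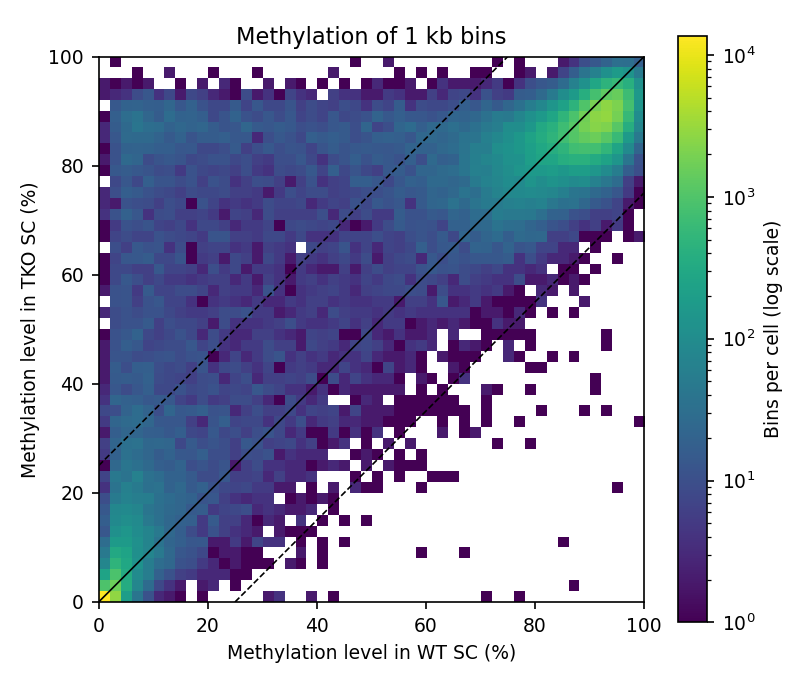
Each cell counts 1 kb bins (colour, log scale) by methylation level in WT SC (x axis, %) and in TKO SC (y axis, %). The solid line marks equal levels and the dashed lines a difference of 25 points. The cells above the upper dashed line hold the 5830 higher bins, which reach from unmethylated to intermediate WT levels, and few bins lie under the lower dashed line.

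The size of the difference depended on where a bin stood in WT SC. Among 30609 bins under 20% in WT SC, 3208 (10.5%, Wilson interval 10.1 to 10.8) were higher in TKO SC, and the median difference was -0.418 points. Among 12651 bins at 20 to 80%, 2622 (20.7%, 20.03 to 21.4) were higher, 90 were lower and the median difference was 8.87 points. Among 56927 bins over 80%, none was higher, since such a bin has no room for a rise of 25 points. In that class 43 bins were lower, 77.3% lay below WT SC and the median fell from 91.3% to 88.1%, with a median difference of -2.99 points. In steps of 5 points the share of higher bins was 3.01% at 0 to 5%, 29.7% at 5 to 10% and between 50.7% and 54.2% from 20% to 50%. It was 1.83% at 65 to 70%. The room for a rise shrinks as the WT level goes up, and above 75% no rise of 25 points fits. The part of this limit in the shares and medians by WT level was not tested. The median difference peaked at 29.9 points for bins at 35 to 40% in WT SC and was -5.57 points for bins at 95 to 100%. The classes use the WT SC level, which is also in the difference. With classes taken from WT CME, 9.21% of the low bins and 24.8% of the intermediate bins were higher, and the median of the high bins was -2.89 points.

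The share of mitochondrial cytosines read as C, a measure of unconverted cytosine, was 1.46% for WT SC but 0.141% for TKO SC. It was 1.44% in WT CME and at most 0.387% in the other libraries. The descriptions of WT SC and WT CME also carry a suffix, BS, that those of the other 5 libraries lack, and its meaning is not given in the sources used here. In the stem cell and CME comparisons this label and the genotype cannot be told apart, while neither library of the CP comparison carries it. Correcting each stem cell level for its mitochondrial share turned the median difference of the bins under 20% to 0.899 points and left that of the bins over 80% at -2.88. Differences of about a point at low levels therefore change sign with this correction. The part of conversion in the fall of the high bins beyond this was not tested.

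**Figure D2:**
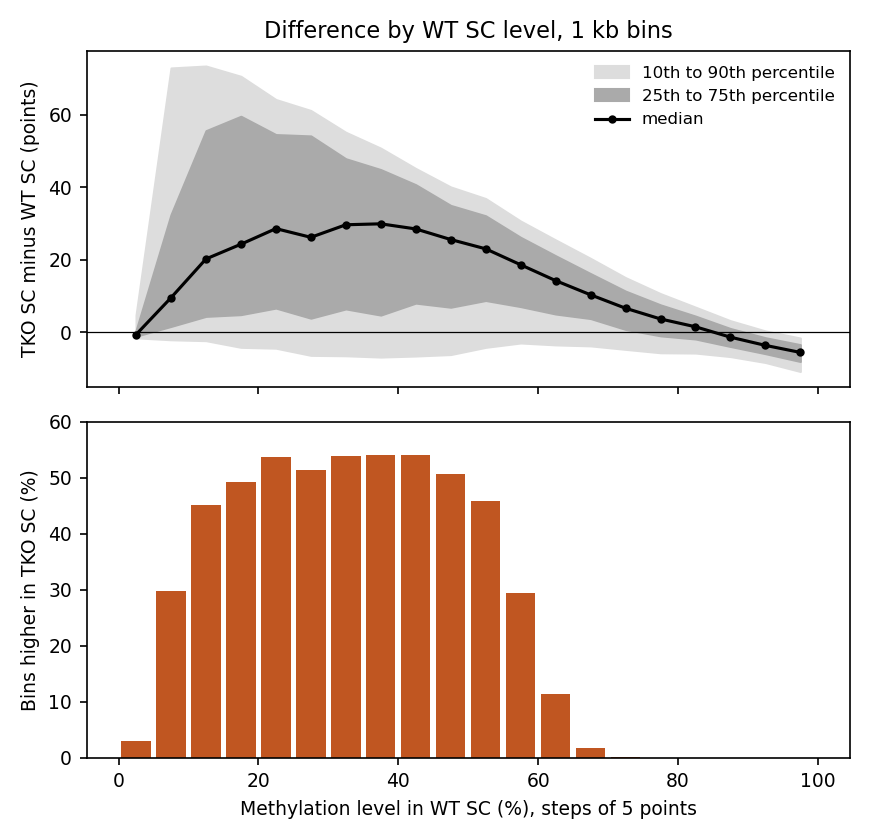
The upper panel shows TKO SC minus WT SC (points) for bins grouped in 5-point steps of their WT SC level (%), as the median (line), the middle 50% of bins (dark band) and the 10th to 90th percentile (light band). The lower panel shows the share of bins called higher in each step (%), which exceeds 50% for WT levels of 20 to 50% and is 0 above 75%.

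Bins of low methylation differed by their CpG content and by their place next to methylated DNA. Of bins under 20% in WT SC with 5 to 9 measured CpGs, 19.9% were higher in TKO SC, and the share went down to 14.0% with 10 to 19 CpGs, 9.11% with 20 to 39 and 4.31% with 40 or more. Bins at 20 to 80% ran the other way, from 15.2% with 5 to 9 CpGs to 48.5% with 40 or more. In this class the room for a rise of 25 points depends on the WT level. Of bins at 70 to 75% in WT SC, for example, 0.0964% were higher. The part of WT level in the shares by CpG number was not tested. Fewer CpGs also means fewer reads in a bin, and the part of depth in these shares was not tested. The distance to methylated DNA was taken in WT CME, which is in neither side of the comparison. Of CpGs under 20% in WT CME, 26.4% were higher in TKO SC when the nearest CpG over 80% lay 100 to 250 bp away, and 18.9% when it lay 250 to 500 bp away. The share was 11.2% within 100 bp and between 5.31% and 5.67% beyond 1000 bp. At 100 to 250 bp the mean level of these CpGs went from 7.88% to 27.8%. The rises were thus most frequent a short way inside the edges of unmethylated stretches.

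**Figure D3:**
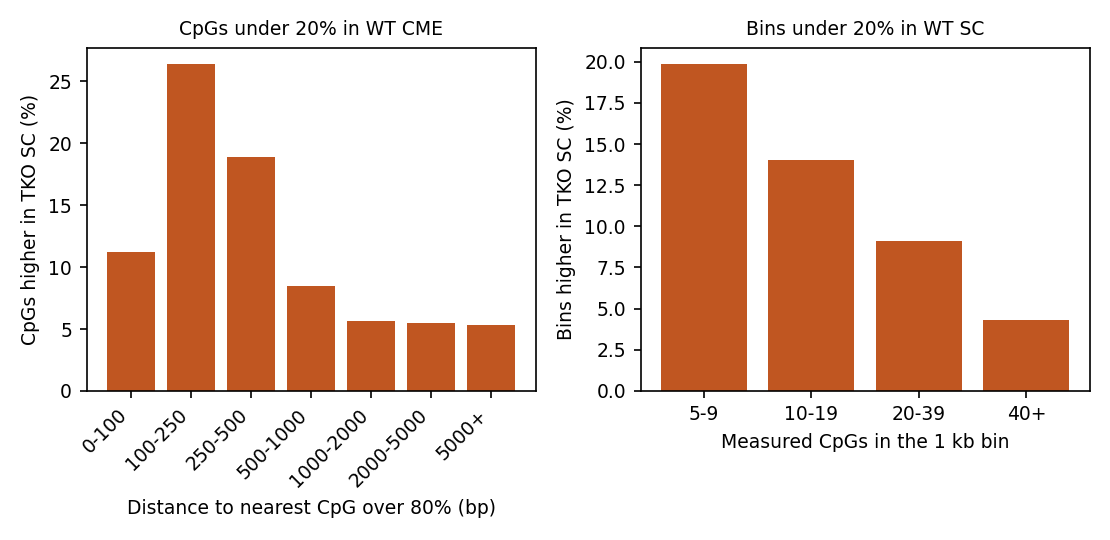
Left, the share of CpGs under 20% in WT CME that were higher in TKO SC (%), by distance to the nearest CpG over 80% in WT CME (bp). Right, the share of 1 kb bins under 20% in WT SC that were higher in TKO SC (%), by the number of measured CpGs in the bin. The left bars peak at 26.4% for 100 to 250 bp, and the right bars fall from 19.9% to 4.31%.

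Gene starts showed the same layout. Of 35116 promoter sequences, 21319 had 8 or more CGs and 10200 of these (47.8%) were placed at a single position. As a check on the placement, 97.9% of neighbouring placements kept the distance of their reference positions within 1000 bp, and 15 placed windows lay over 500 kb off their neighbours. Around 9560 distinct starts the mean CpG level in the 250 bp upstream was 1.43% for WT SC and 2.21% for TKO SC, 0.776 points apart. The difference widened to 7.79 points at 2250 to 2500 bp downstream and to 5.89 points at 1750 to 2000 bp upstream. Among bins under 20% in WT SC, 3.11% were higher within 500 bp of a placed start, 6.95% at 500 to 2000 bp and 19.9% at 2 to 10 kb. The bins nearest to a start also held more CpGs, with a median of 42 against 21 both at 500 to 2000 bp and at 2 to 10 kb. Starts that were not placed count as absent here.

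**Figure D4:**
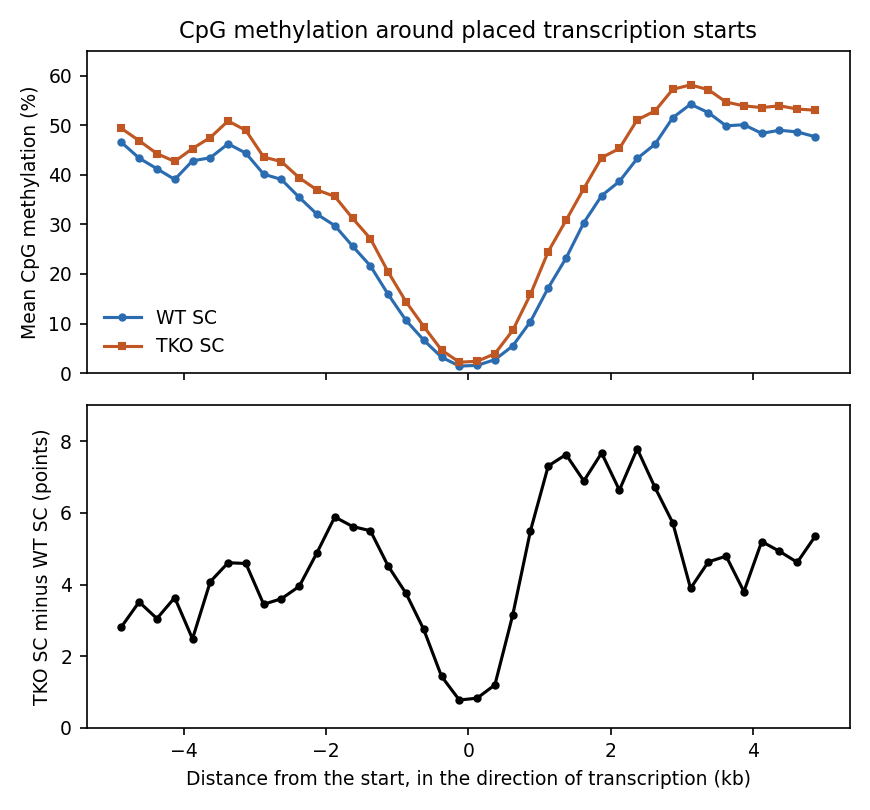
Mean CpG methylation (%) in WT SC and TKO SC in 250 bp steps around 9560 placed starts (upper panel), and TKO SC minus WT SC in points (lower panel), with distance in kb in the direction of transcription. Both libraries dip at the start, where they differ by 0.776 points, and they lie furthest apart 1 to 3 kb downstream, at up to 7.79 points.

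The 12 bins with the largest changes in their class are given here by position. In the class under 20% the bin on chromosome 15 from 45403001 to 45404000 rose from 2.74% of 475 reads to 98.3% of 58 reads over 5 CpGs. The bin on chromosome 19 from 53540001 to 53541000 rose from 0 of 120 reads, of which 3 would make 2.5%, to 94.4% of 180 reads. The bin on chromosome 17 from 16650001 to 16651000 rose from 1.13% to 94.1%. In the intermediate class the largest rises were on chromosome 5 from 63256001 to 63257000 (21.5% to 96.4%), on chromosome 4 from 144833001 to 144834000 (22.1% to 95%), which holds the start of LOC101927636, and on chromosome 2 from 131085001 to 131086000 (20.6% to 92.6%). Falls in the high class were largest at the ZNF630 start on X from 47931001 to 47932000 (87.5% to 2.52%), on chromosome 13 from 114428001 to 114429000 (85.6% to 10.1%) and on chromosome 19 from 21657001 to 21658000 (95.1% to 20.8%). In the intermediate class they were the neighbouring X bin from 47930001 to 47931000 (77.5% to 0.691%), a bin on chromosome 2 from 88124001 to 88125000 (70.8% to 1.49%) and a bin on chromosome 19 from 11849001 to 11850000 (66.9% to 9.53%). The highest adjusted p among these 12 bins was 1.85e-50 (Fisher's exact test).

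Of the 5830 higher bins 1966 (33.7%) adjoined another higher bin, and of the 133 lower bins 8 (6.02%) adjoined another lower bin. Higher bins were 5.82% of all bins and lower bins 0.133%, and the part of this in the shares that adjoin was not tested. The higher bins formed 4744 runs, of which 145 held 3 or more bins. The run from 134597001 to 134603000 on chromosome 10 covered 6 bins and 431 CpGs and rose from 14.7% to 90.8%. A second run of 6 bins on chromosome 10, from 94819001 to 94825000, rose from 6.88% to 65.7% and holds the start of CYP26C1, an enzyme that breaks down retinoic acid. The third, on chromosome 16 from 67195001 to 67201000, rose from 5.97% to 65.3%. The lower runs had 2 bins each: on chromosome 19 from 57049001 to 57051000 (37.3% to 8.59%) and from 52407001 to 52409000 (41.3% to 0.504%), and on chromosome 8 (77.4% to 41.5%). By chromosome the share of higher bins ran from 4.16% on 16 to 7.06% on 15, and that of lower bins was highest on X (0.310%, 6 bins), with 0.262% on chromosomes 19 (21 bins), 18 and 14.

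Most promoters did not change. Of 10087 promoter windows with 5 or more measured CpGs, from 8741 genes, 345 (3.42%) rose and 14 (0.139%) fell in TKO SC. Many windows overlap another (3682), so windows are not independent. Over all windows the median was 1.31% for WT SC and 0.302% for TKO SC, a gap of the size that the mitochondrial share of C also showed. The higher windows rose from a median of 8.10% to 78.2%, and 55 of them reached 90% or more in TKO SC. Of 9598 windows under 20% in WT SC 261 (2.72%) were higher. None of these 9598 windows had room for a fall of the size that a call needs. Of 195 windows at 20 to 80% 84 (43.1%) were higher and 11 (5.64%) lower. Of 294 windows over 80% 3 (1.02%) were lower, and these 294 had no room for a rise of that size. Most windows could thus be called only as rises, so the shares of rises and falls over all windows are not directly comparable. Windows of long noncoding RNAs were higher in 6.01% of cases (113 of 1880) and those of protein-coding genes in 2.83% (232 of 8207).

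The largest promoter rises took windows from almost no methylation to over 90%. ZNF354C, a zinc finger protein, had 2.44% of 1678 reads methylated in WT SC, compared with 95.3% of 1941 reads in TKO SC. POU3F4, a POU-domain transcription factor of neural and inner ear development, stood at 1.59% of 694 reads and at 94.2% of 173 reads. LIPE, the hormone-sensitive lipase of fat cells, rose from 1.08% to 91.2%, and LIPE-AS1, whose window overlaps it on the other strand, from 1.48% to 90.9%. FAM43A rose from 2.77% to 92.7% and PHYHIPL from 1.85% to 91.4%. These windows were also low in the WT libraries of the later stages, the highest of which was ZNF354C in WT CM at 5.68%.

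A pair of windows of MIR9-3HG, the host transcript of a miR-9 gene, was among the 12 largest rises, at 2.50% and 91.8% for the first and 2.93% and 90.7% for the second. PDE2A-AS2, a transcript antisense to a phosphodiesterase gene, rose from 3.08% to 91.7%. GPR75, a G protein-coupled receptor, and the readthrough transcript GPR75-ASB3 share a window that rose from 2.75% to 90.9%. FAM107A, an actin-associated protein, rose from 4.10% to 92.0%. Every window of this set was over 90% in both TKO SC and TKO CME. The highest adjusted p of the 12 was 6.77e-147 (Fisher's exact test).

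**Figure D5:**
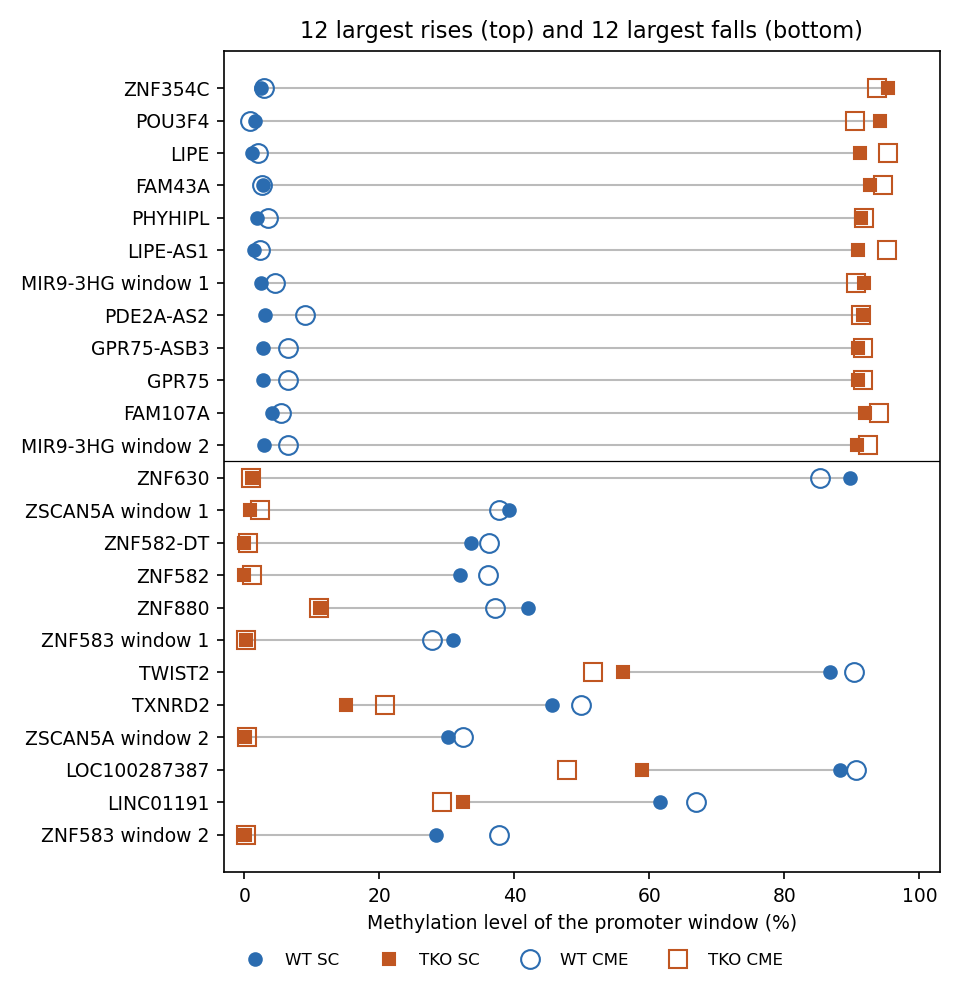
Methylation level (%) of the 12 promoter windows with the largest rise (above the line) and the 12 with the largest fall (below it) in WT SC and TKO SC (filled), joined by a grey line, and in WT CME and TKO CME (open). The rises run from under 5% to over 90%, while the falls at ZSCAN5A, ZNF582, ZNF582-DT and ZNF583 run from between 28.4% and 39.2% down to under 1% in TKO SC.

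Gene lists for lineage and regulator genes were read against the share over all genes, taking for each gene the window with the most measured CpGs: 293 of 8741 genes (3.35%) were higher, 12 (0.137%) were lower, and the median difference was -0.773 points. Among HOX genes, which set position along the body axis, 2 of 10 measured members were higher. HOXD10 rose from 4.72% of 933 reads to 89.5% of 1261 reads and HOXA6 from 15.3% to 90.7%. The other 8 were not called. Of these, the highest difference was in HOXA10, at 2.70% and 5.82%, and the lowest was in HOXA7, at 9.74% and 3.49%. The change thus did not run across a HOX cluster: HOXD11 (3.31% and 5.64%) and HOXD8 (2.24% and 0.719%) lie on either side of HOXD10 and were not called.

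Among 20 neural and ectoderm factors 1 was called, LHX3, a LIM homeobox factor of the pituitary and motor neurons, which rose from 14.97% to 88.9%. PAX6, SOX1, OTX1 and the other members had levels under 7% in both libraries. Germline genes, many of which carry methylated promoters outside germ cells, had 2 of 9 members called. BOLL, an RNA-binding protein of the DAZ family, rose from 9.25% to 87.2%, and TDRD5, a tudor-domain protein of the male germline, rose from 17.4% to 90.7%. Of the other germline genes 6 were over 80% in both libraries, among them MOV10L1 (87.7% and 93.2%) and TEX101 (94.5% and 83.9%). Of 3 clustered protocadherins, cell adhesion proteins of neurons, PCDHGC3 rose from 2.39% to 48.2%, whereas PCDHGC4 (0.524% and 0.630%) and PCDHGB6 (1.74% and 1.36%) did not.

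In the other 11 lists no member was called in the window kept for it, the one with the most measured CpGs. Of all windows of these genes 1 was called, at KCNH2. The 6 measured pluripotency genes included LIN28B at 1.49% and 1.42% and TFCP2L1 at 0.843% and 0.669%. The 6 early mesoderm genes, with TBXT and MIXL1, and the 5 cardiac regulators, with HAND1 and TBX20, were all under 3% in both libraries. Of 10 sarcomere and ion channel genes the highest difference in these windows was 3.25 points, at a start of the potassium channel gene KCNH2. KCNH2 has 3 placed windows, and another of them, on chromosome 7 from 150652843 to 150653142, was called higher, from 19.8% of 546 reads to 77.3% of 715 reads (adjusted p = 4.84e-95, Fisher's exact test). Among 11 WNT ligands WNT10A stood at 7.58% and 25.9% and WNT1 at 2.31% and 14.0%, differences of 18.3 and 11.7 points that did not reach the 25-point minimum. The 4 WNT antagonists ran up to DKK1, at 1.46% and 7.65%. None of 5 endoderm factors, 13 genes often hypermethylated in tumours, 9 housekeeping genes and 8 genes of DNA methylation and demethylation was called. TET2 and TET3 themselves stood at 0.903% and 0.346% and at 1.40% and 0.150%. Of 12 imprinted genes the differences ran from -18.2 points in GNAS (42.7% and 24.5%) to 20.03 points in FAM50B (3.22% and 23.3%).

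Sequence content differed between windows that rose and those that did not. This description was chosen after the calls were known. Among windows under 20% in WT SC, those with 8 to 14 CGs were higher in 14.6% of cases (27 of 185), and the share went down at each step of CG number to 1.20% (46 of 3841) at 35 or more. The 261 higher windows had a median of 26 CGs and the 9064 windows within 5 points of WT SC a median of 32. The letters CCGGAA, the core of ETS factor sites, were present on either strand in 18.4% of the higher windows, in 35.1% of the windows within 5 points and in 34.1% of all 10087. The NRF1 motif was in 3.45%, 11.1% and 10.5%, and the GC box GGGCGG in 76.6%, 83.7% and 82.1%. The CRE motif TGACGTCA was in 1.53%, 3.08% and 2.91%. The E-box CACGTG was about as frequent, at 9.96%, 9.81% and 9.96%. Of the motifs without a CG, the CCAAT box was in 24.5%, 29.6% and 28.9% and the TATA box TATAAA in 4.21%, 2.96% and 3.15%. AAGATGGCG, a form of the YY1 motif, was in 0 of 261 higher windows, of which 3 would make 1.15%, and in 289 of 9064 (3.19%). Motifs with a CG are more frequent where CGs are many, and the sets differ in CG number, so the part of CG number in these shares was not tested. The printed windows show the range: ZNF354C has 26 CGs and POU3F4 18 in the 250 bases before the start, against 35 in SDHA.

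Promoter losses were most frequent at zinc finger genes of chromosome 19. Of 122 windows of genes named ZNF, ZSCAN, ZKSCAN or ZFP on chromosome 19, 8 (6.56%) were lower in TKO SC, compared with 0 of 553 windows of other genes on that chromosome and 0.139% of all windows. Windows under 20% in WT SC had no room for such a fall. At 20 to 80% in WT SC were 11 of the 122 windows and 23 of the 553. Some of the 8 lower windows overlap, as those of ZNF582 and ZNF582-DT do, so they are not separate loci. Zinc finger windows on other chromosomes were lower in 1 of 186 cases, that of ZNF630. This grouping was made after the values were seen. Of these 8 windows 7 lay in a stretch of 89.9 kb from 56825822 to 56915750, and every placed window in that stretch was lower. They belong to ZSCAN5A, its antisense transcript ZSCAN5A-AS1, ZNF582, its divergent transcript ZNF582-DT, and ZNF583, all zinc finger genes or transcripts from their promoters.

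Within the stretch WT levels were intermediate and TKO levels close to 0. The ZSCAN5A window that starts at 56879598 went from 39.2% of 831 reads to 0.889% of 1912 reads, and the one that starts at 56825882 from 30.2% to 0.133%. ZNF582 stood at 31.9% of 750 reads and at 0 of 403 reads, of which 3 would make 0.744%. ZNF582-DT stood at 33.5% and at 0 of 878 reads, of which 3 would make 0.342%. The windows of ZNF583 stood at 30.9% and 0.168% and at 28.4% and 0.102%. Across the 4 WT libraries the windows of the stretch ran from 27.8% to 49.6%, and in TKO CME they reached 2.23% at most. In TKO CP 6 of the 7 were at 1% or less, and the exception was the ZSCAN5A window at 56879598, at 34.6%. No other window placed from ZNF787 upstream to ZNF835 downstream was called: ZNF787 stood at 2.01% and 0.126%, ZNF71 at 1.61% and 0.0836%, ZNF667 at 93.3% and 94.1%, ZNF667-AS1 at 91.9% and 87.1% in its window at 56988993, and ZNF835 at 86.0% and 80.8%. The run of lower bins from 57049001 to 57051000 lies between the starts of ZNF667 and ZNF71.

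The other falls were of different kinds. ZNF630, on X, was the largest, from 89.7% of 145 reads to 1.15% of 520 reads, and it was at 0.923% in TKO CME and 1.79% in TKO CP. ZNF880, the eighth zinc finger window of chromosome 19, went from 42.0% to 11.1%. TXNRD2, the mitochondrial thioredoxin reductase, went from 45.5% to 15.1%, and TEDC1, a tubulin-binding protein, from 32.9% to 6.07%. TWIST2, a basic helix-loop-helix factor of mesenchyme, went from 86.8% to 56.1%, and the overlapping LOC100287387 from 88.2% to 58.9%. A window of LINC01191 went from 61.6% to 32.4%. The highest adjusted p among the 12 largest falls was 2.30e-17 (Fisher's exact test). Zinc finger genes of a cluster resemble each other, and values of windows with a near-identical copy elsewhere are uncertain.

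Sites called in stem cells were then read in the libraries of later stages, which come from other cultures of the same cells and share no library with the comparison. Of the 5830 higher bins 5716 were measured in the cardiac mesoderm pair, and 5061 of them (88.5%) were higher there by the same rule, where 5.55% of all bins were. Their medians were 21.4% for WT CME and 80.6% for TKO CME. In the cardiac progenitor pair 94.998% of 5398 were higher, against 11.9% of all bins, with medians of 9.89% and 86.2%. Of the lower bins 57 of 122 (46.7%) were also lower in the CME pair (0.115% of all bins) and 24 of 108 (22.2%) in the CP pair (0.0458%). Whatever the size, 117 of the 122 had the same direction in the CME pair and 66 of the 108 in the CP pair. The median differences of these bins were -23.2 points in the CME pair and -2.72 points in the CP pair.

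The bins over 80% did not keep the small fall at every stage. Their median TKO minus WT difference was -3.41 points in the CME pair and 0.720 points in the CP pair. Over 45954 such bins measured in all 7 libraries WT SC had a median of 91.3% and the later WT libraries had 92.1% (CME), 90.7% (CP) and 91.1% (CM). TKO SC had 88.1%, with 88.3% for CME and 91.7% for CP of that genotype. TKO SC and TKO CME thus stood apart from the other 5 libraries. The mitochondrial share of C was 0.141% in TKO SC, 0.387% in TKO CME, 0.139% in TKO CP, 0.219% in WT CP and 1.44% in WT CME. Its part in these medians was not tested. Of the 345 higher promoter windows 316 of 344 measured were up by 25 points or more in the CME pair and 335 of 340 in the CP pair. Of the 14 lower windows 13 of 14 were down by 25 points or more in the CME pair and 9 of 13 in the CP pair.

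As a measure of noise within a library, the 2 strands of each library were compared by the same rule over bins readable on both. This called 0.103% of 35054 bins in WT SC and 0.375% of 28518 bins in TKO SC. Of the higher bins readable on each strand 3176 of 3639 were called on both strands separately, and of the lower bins 26 of 46. The share of lower bins in the comparison (0.133%) is of the order of these shares, although they cover other bins. The strands share the DNA and the culture, so these values hold no difference between cultures.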

How the data were processed

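DNA methylation was measured by ERRBS in 7 HUES8 libraries, and 2 of them were compared here. Alignment and methylation calling were done at a core facility, per the labels' protocols. Per the submitters' processing notes the build was hg19. Neither aligner nor caller is given in the sources used here. Per the file headers, the authors' files give for each CpG cytosine and strand its coverage, a read count, and the percent of reads called C and T. The lowest deposited coverage count was 10 in every file.

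Percentages were turned back into C and T reads, which were whole in 100% of lines within rounding, and both strands of a CpG were summed (a minus-strand position was moved by 1 base). CpGs with 10 or more reads in both libraries entered 1 kb bins with 5 or more CpGs. Read sums were compared by Fisher's exact test (two-sided) with Benjamini-Hochberg adjustment over all CpGs, bins or promoter windows. A call needed 25 points and an adjusted p under 0.01. The test was checked on simulated data. The coverage counts summed to 120742115 in WT SC and 197312658 in TKO SC, where a read counts at each CpG that it covers.

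Promoter sequences (RefSeq, GRCh38.p14) were placed by CG spacing: 8 or more coinciding CpGs, 60% or more of the CGs found, at most 1 extra CpG, and no second place as good among candidates sharing 4 neighbouring CpGs in a row. Of the 417 genes in 15 lists, those without a placed window were not analysed here. Named were the 3 largest called rises and falls of bins in each WT SC class, the 3 longest runs each way, the 12 largest rises and falls of promoters, and up to 2 called members each way per list. Any others were chosen after their values were seen. The comparison and the lists were chosen with earlier results of these data known. Alternatives were other coverage minimums, sizes, bins, strands, corrections and classes. The work used numpy 2.4.6, scipy 1.17.1, numba 0.67.0, pandas 2.3.3 and matplotlib 3.10.9 under Python 3.11.15.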

Additional observations from a re-analysis of the deposited data

Results flagged for a closer look

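At 2 promoter windows that were lower in TKO SC, the TKO minus WT difference had the opposite sign in the cardiac progenitor pair. It was 31.1 points for ZNF880, where TKO CP stood at 81.3% and WT CP at 50.2%, and 0.609 points for TXNRD2, at 48.8% and 48.2%. Bins under 20% in WT SC had a median difference of 1.06 points in that pair, opposite in sign to stem cells, and bins over 80% had one of 0.720 points. Whether the stages differ in these values was not tested, since each has 1 library per genotype.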

How the results depend on the processing

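The median difference of bins under 20% turned from -0.418 to 0.899 points with the correction by the mitochondrial share of C, and the balance of higher to lower bins turned by adjusted p alone (below). Each other repeated result kept its direction. No paired analysis was possible because each genotype has 1 stem cell library, and for the same reason none could be left out. The mean CpG difference, 2.33 points, was 2.61 and 2.88 with 20 and 30 reads per CpG, 2.45 and 2.46 on the F and R strand alone, 2.51 weighted by reads and 3.06 corrected for the mitochondrial share of C. With 20 and 30 reads, 10.1% and 9.58% of the low bins and 23.1% and 25.3% of the intermediate bins were higher, and the high bins had medians of -2.91 and -2.79 points (-2.88 with the correction). Classes from WT CME gave 9.21%, 24.8% and -2.89. Higher CpGs numbered 61388 and 61897 on the F and R strand and lower CpGs 2301 and 2198. Lower CpGs were 2949 with 30 reads, 2230 at 40 points and 8368 at 10 points. Thinned to 10 reads per CpG, 5576 were higher and 63 lower. Higher and lower bins were 3633 and 23 at 40 points, 10803 and 3252 at 10 points, 15891 and 21498 by adjusted p alone, and 3680 and 54 with 10 or more CpGs. Lower bins were 56 with 30 reads, 383 with 3 or more CpGs and 88 from the mean of CpG levels. Lower promoters were 1 at 40 points and 8 without overlapping windows, an alternative chosen after seeing the data. Whatever the size, called higher bins went the same way in 99.9% (CME pair) and 99.7% (CP pair), and called lower bins in 95.9% and 61.1%. By the calling rule, higher bins were higher in 94.998% and lower bins lower in 22.2% in the CP pair. Of 225 repeats over named bins and promoters 222 kept the call, by size alone where the mitochondrial correction was used. Items with too few measured CpGs in a setting are not among the 225. The ZNF630 promoter, for example, could not be repeated with 20 or 30 reads or on the F strand. On the R strand alone ZNF880 (-24.2 points), TWIST2 (-24.0) and LOC100287387 (-17.9) missed the 25-point minimum.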
